A study of Mus musculus with 12 samples.

Results

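The 10 genes described here make, desaturate, regulate or store fatty acids: Acly, Acaca, Fasn, Elovl6, Scd1, Scd2, Srebf1, Thrsp, Plin2 and Fabp4. They were chosen by gene name, and 10 of 10 were found among the 23406 genes of the deposited table. Expression was measured by RNA sequencing of total RNA from passage 2 mammospheres, the spheres into which mammary cells grow when kept from attaching. The 4 groups of 3 libraries were 12-month KO, 2-month KO, 12-month WT and 2-month WT. KO mice were p66-/- C57BL/6J animals, in which the p66 isoform of the adaptor gene Shc1 is knocked out, and WT mice were C57BL/6J. The ages, 12 and 2 months, are those of the mice. The design text counts 3 young and 3 aged mice, but the labels do not tie a library to a mouse or culture, so p-values measure the spread between these libraries.

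Fatty acid synthesis starts from citrate that has left the mitochondrion. ATP citrate lyase (Acly) cuts it to acetyl-CoA, acetyl-CoA carboxylase (Acaca) makes malonyl-CoA, and fatty acid synthase (Fasn) joins these units into palmitate, which Elovl6 lengthens and the stearoyl-CoA desaturases (Scd1, Scd2) turn into monounsaturated acids. The transcription factor SREBP1 (Srebf1) switches many of these genes on, and in the lactating mammary gland the pathway supplies the fatty acids of milk fat. Perilipin 2 (Plin2) coats the droplets in which the product is stored, and Fabp4 encodes a fatty acid carrier of adipocytes, capillary endothelium and macrophages.

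Libraries held 31845169 to 109079737 reads in genes, recovered from the deposited CPM (reads relative to library size, scaled by the authors). Replicate 3 of 12-month KO was the deepest. In 2-month WT, replicate 1 stood apart from replicates 2 and 3, with a chi-square of their reads per degree of freedom of 71.5 and 47.8, against 11.1 between replicates 2 and 3. In 12-month KO replicate 3 had values of 37.9 and 36.5 against replicates 1 and 2, which were closer to each other. This chi-square grows with depth, so replicate 3, the deepest, need not differ more in its levels. Shc1, the targeted gene, had 162 to 177.5 CPM in 12-month KO, 208 to 209 in 2-month KO, 203 to 220 in 12-month WT and 267 to 311 in 2-month WT, and gene-level counts add its isoforms together, so they do not check the loss of p66. A list of 10 fibroblast genes summed to 15955 to 16662 CPM in 12-month KO, 14500.4 to 16173 in 2-month KO, 11238 to 11596 in 12-month WT and 14422 to 14902 in 2-month WT, and a list of 12 luminal epithelial genes to 341 to 4288 CPM per library. By calls defined below, 9 of 11 skeletal muscle markers were higher in KO at 12 months (31.3% of all genes tested). All 11 fell with age in WT (35.6%). At 2 months all 11 were lower in KO (14.2%), and with age in KO 7 rose and 2 fell (32.9% and 34.2%). Of 8 basal epithelial markers, 7 were lower in KO at 12 months (38.9%) and 8 rose with age in WT (22.3%). At 2 months 1 of these 8 was higher and 4 lower in KO (1.86% and 14.2%). With age in KO 5 rose and 1 fell (32.9% and 34.2%). The part of these cell types in the results below was not tested. In such bulk RNA, fewer cells of a type and less RNA per cell cannot be told apart.

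Promoter windows are shown for 4 genes whose levels bear on the pattern below. Acly and Plin2 had the closest pair of profiles among the 10, and Fasn and Thrsp moved in opposite directions between genotypes at 12 months. Each window runs from 250 bases before to 50 bases after a RefSeq start site on GRCm38.p6, the build also called mm10, and is printed 5′ to 3′ on the gene's own strand, here the minus strand. Capitals mark matches, on either strand, to TCACNCCAC (a core of the sterol response element bound by SREBPs), CACGTG (E-box), CCAAT (the box bound by NF-Y), GGGCGG (GC box, bound by Sp1) and AGGTCA (a nuclear receptor half-site).
Acly (chr11:100527951-100528250): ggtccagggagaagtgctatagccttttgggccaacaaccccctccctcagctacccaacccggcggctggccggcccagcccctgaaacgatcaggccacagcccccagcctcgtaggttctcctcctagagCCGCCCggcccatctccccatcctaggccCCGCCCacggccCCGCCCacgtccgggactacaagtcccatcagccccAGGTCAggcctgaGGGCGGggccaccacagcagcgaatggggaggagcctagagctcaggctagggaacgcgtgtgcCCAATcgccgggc
Plin2 (chr4:86670010-86670309): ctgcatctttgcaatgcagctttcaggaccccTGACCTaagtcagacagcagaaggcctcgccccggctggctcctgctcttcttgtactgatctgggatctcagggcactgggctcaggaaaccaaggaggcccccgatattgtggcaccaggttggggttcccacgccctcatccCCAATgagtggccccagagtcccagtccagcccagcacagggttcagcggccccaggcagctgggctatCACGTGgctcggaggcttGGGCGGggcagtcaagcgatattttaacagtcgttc
Fasn (chr11:120824498-120824797): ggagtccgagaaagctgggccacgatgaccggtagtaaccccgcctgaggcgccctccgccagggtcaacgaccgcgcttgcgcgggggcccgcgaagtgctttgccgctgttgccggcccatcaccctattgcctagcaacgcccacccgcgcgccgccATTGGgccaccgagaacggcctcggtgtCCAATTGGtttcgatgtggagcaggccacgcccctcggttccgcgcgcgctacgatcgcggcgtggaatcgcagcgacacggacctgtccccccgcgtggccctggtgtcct
Thrsp (chr7:97417501-97417800): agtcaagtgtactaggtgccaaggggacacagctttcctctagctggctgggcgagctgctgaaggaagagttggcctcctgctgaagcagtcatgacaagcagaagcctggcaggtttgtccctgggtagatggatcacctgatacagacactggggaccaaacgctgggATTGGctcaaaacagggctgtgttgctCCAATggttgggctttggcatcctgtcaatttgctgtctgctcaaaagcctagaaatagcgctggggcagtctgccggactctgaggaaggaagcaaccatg
The Fasn window holds 3 CCAAT matches, 2 of them overlapping, and the Thrsp window holds 2, with no match to any other motif in either. The Acly window holds 4 GC boxes, 1 CCAAT and 1 half-site, and the Plin2 window 1 match each to the E-box, the CCAAT box, the GC box and the half-site. Of all 32851 windows in the RefSeq table, 37.4% hold CCAAT, 35.7% the GC box, 16.3% the half-site, 7.15% the E-box and 1.24% the sterol element core, of which none of the 9 windows of the 7 members in the table has a match. The Acaca window has no match to any of the 5 motifs. A match is a run of letters in a window, and no test was made of it.

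In 12-month KO spheres 7 of the 10 were called higher than in 12-month WT spheres, with Scd2, Fabp4 and Acaca raised the most, and 3 were called lower, namely Thrsp, Scd1 and Srebf1. Values after a gene name are log2 fold changes ± SE. A gene is called where limma's adjusted p, over the 13961 genes averaging 0.5 CPM or more, is under 0.05, and 31.3% of all genes tested were called higher and 38.9% lower in this comparison. The median log2 fold change was 0.49 over the 10 genes and -0.07 over all genes. At 2 months none was called higher in KO (background 1.86%) and 2 were called lower, Scd2 and Thrsp (background 14.2%). Where libraries are said below not to overlap, this was common among all genes tested. Their libraries did not overlap for 73.9% with genotype at 12 months and 32.1% with genotype at 2 months. With age the share was 72.9% in KO and 62.3% in WT.

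Age moved the genes differently in the genotypes. In KO, 7 of 10 rose with age and none fell (background 32.9% higher, 34.2% lower), with a median of 0.39 against -0.02 over all genes. In WT, 2 rose, Thrsp and Scd1, and 5 fell, Acly, Elovl6, Scd2, Plin2 and Fabp4 (background 22.3% higher, 35.6% lower), with a median of -0.21 against -0.08 over all genes. The difference between the age effects, KO less WT, was called for 9 of 10, above 0 for 7 and below 0 for 2 (background 31.4% above, 26.2% below). Of these 9, the negative value of Thrsp did not hold with edgeR or DESeq2 on recovered reads, and quantile scaling ended the calls of Acly (adjusted p = 0.327), Fasn (adjusted p = 0.253) and Plin2 (adjusted p = 0.0794). For age in WT, rises were 38.6% of all calls, 42.0% to 47.8% with other scalings and 50.9% with edgeR on recovered reads. At 2 months the share of calls higher in KO was 11.5%, and 29.2% to 39.6% with other scalings and with edgeR or DESeq2 on recovered reads. The age and genotype comparisons share libraries, so their values for a gene are not independent.

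**Figure D1:**
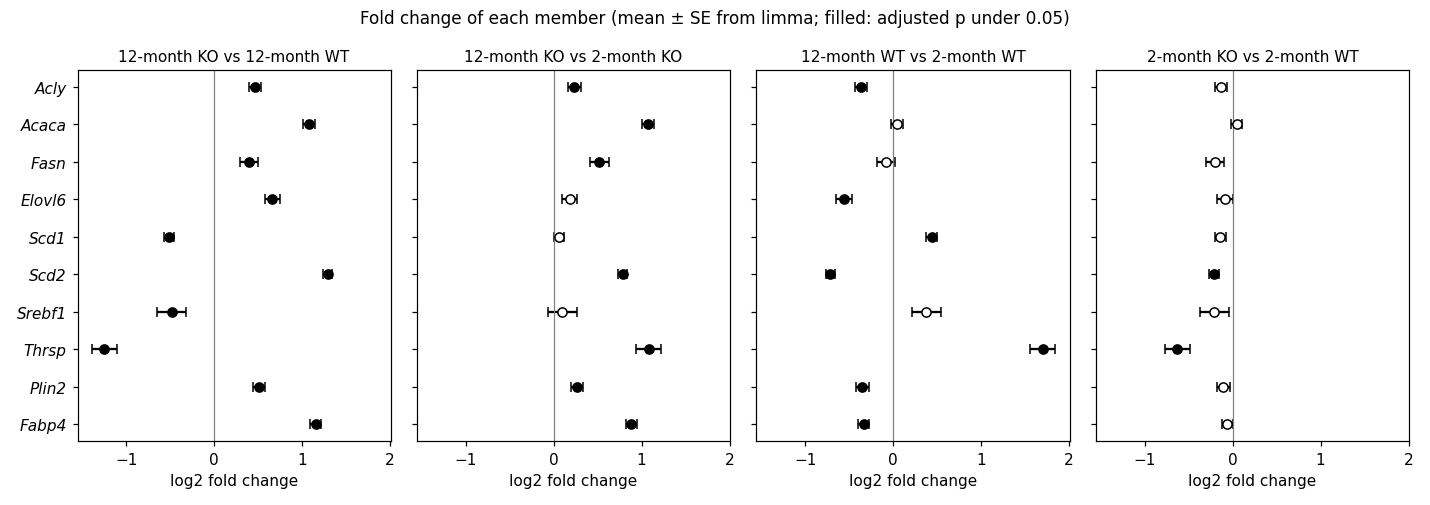
Log2 fold change (x axis) of each of the 10 genes (y axis) in 4 comparisons, as limma estimates with their SE as bars, and filled where the adjusted p is under 0.05. Scd2, Fabp4 and Acaca lie beyond 1 in 12-month KO against 12-month WT, while 2-month KO against 2-month WT has filled points for Scd2 and Thrsp only.

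Acaca, which encodes the carboxylase of the first committed step, was raised in a single group. Gene positions here and below are those of the deposited table, on mm10. Acaca (chromosome 11, 84195437 to 84401651, plus strand) had 119, 104 and 111 CPM in 12-month KO, 52.4, 53.2 and 51.7 CPM in 2-month KO, 52.8, 48.8 and 56.0 CPM in 12-month WT and 52.1, 47.7 and 52.6 CPM in 2-month WT. All 3 libraries of 12-month KO lay far above those of the other groups, which overlapped each other. The log2 fold change was 1.07 ± 0.07, adjusted p = 1.18e-08 with age in KO, and 1.07 ± 0.07, adjusted p = 8.53e-09 for KO over WT at 12 months. With age in WT Acaca was 0.05 ± 0.07, adjusted p = 0.572, and at 2 months KO over WT was 0.05 ± 0.07, adjusted p = 0.712.

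Acly, which supplies cytosolic acetyl-CoA, differed less and in both directions. Acly (chromosome 11, 100476351 to 100528000, minus strand) had 611, 725 and 647 CPM in 12-month KO, 573, 555 and 552 CPM in 2-month KO, 486, 458 and 488 CPM in 12-month WT and 557, 654 and 635 CPM in 2-month WT. The 12-month WT libraries were the lowest and overlapped no other group. Acly rose as KO mice aged (0.24 ± 0.07, adjusted p = 0.00996) and declined as WT mice aged (-0.36 ± 0.07, adjusted p = 0.000638), and was higher in 12-month KO than in 12-month WT (0.47 ± 0.07, adjusted p = 5.93e-05). The rise in KO is not called without replicate 2 of 12-month KO (0.17, adjusted p = 0.0533). At 2 months KO over WT was -0.13 ± 0.07, adjusted p = 0.247, and passes the threshold if replicate 1 of 2-month WT is left out (-0.20, adjusted p = 0.0463). With quantile scaling the 12-month call of Acly is lost (0.061, adjusted p = 0.381), and its value with age in KO is -0.050, adjusted p = 0.473.

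Fasn, the multi-enzyme protein that assembles palmitate, was highest in 12-month KO. Fasn (chromosome 11, 120805957 to 120824547, minus strand) had 397, 446 and 466 CPM in 12-month KO, 289, 319 and 303 CPM in 2-month KO, 314, 331 and 346 CPM in 12-month WT and 291, 416 and 350.5 CPM in 2-month WT. The KO ages did not overlap, whereas 2-month WT spread from below the lowest 12-month WT library to above its highest, with the low value in the replicate that stood apart. Fasn rose with age in KO (0.52 ± 0.10, adjusted p = 0.000601) and was higher in 12-month KO than in 12-month WT (0.40 ± 0.10, adjusted p = 0.00378), while age in WT gave -0.08 ± 0.10, adjusted p = 0.534 and genotype at 2 months -0.20 ± 0.10, adjusted p = 0.225. Without that replicate 1 of 2-month WT, Fasn is called lower in aged WT (-0.21, adjusted p = 0.0442), and also in KO at 2 months (-0.33, adjusted p = 0.0128). With quantile scaling the 12-month call of Fasn is lost (0.11, adjusted p = 0.372).

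**Figure D2:**
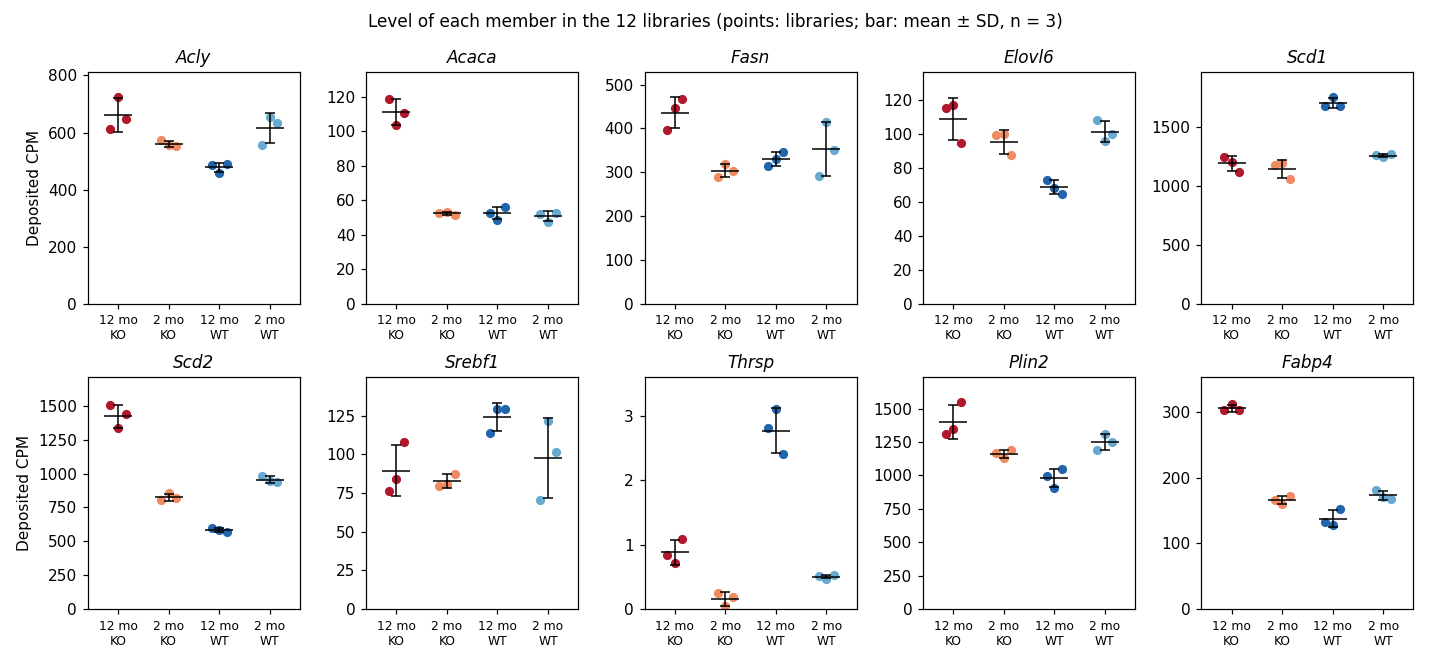
Deposited CPM (y axes, each from 0) of the 10 genes in the 4 groups (x axis), with a point per library and a bar at the mean ± SD of 3. The 12-month KO points of Acaca, Scd2 and Fabp4 lie above all others, and the 12-month WT points of Scd1 and Thrsp lie above all others.

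Elovl6, the elongase that carries palmitate to stearate, was lowest in 12-month WT. Elovl6 (chromosome 3, 129532385 to 129638493, plus strand) had 115, 117 and 94.7 CPM in 12-month KO, 99.4, 99.9 and 87.6 CPM in 2-month KO, 72.9, 68.5 and 64.8 CPM in 12-month WT and 108, 95.8 and 100.3 CPM in 2-month WT. The 12-month WT libraries lay below every other library, and the other groups overlapped each other. Elovl6 was reduced in aged WT (-0.56 ± 0.09, adjusted p = 7.99e-05) and was higher in 12-month KO than in 12-month WT (0.66 ± 0.09, adjusted p = 1.38e-05), while its change with age in KO missed the threshold (0.18 ± 0.09, adjusted p = 0.0708) and genotype at 2 months gave -0.09 ± 0.09, adjusted p = 0.563. Without replicate 3 of 12-month KO, the lowest of its group, the change in KO is called (0.28, adjusted p = 0.00542).

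The desaturase genes Scd1 and Scd2 moved in opposite directions with age in WT and between the genotypes at 12 months. Both encode enzymes that put the first double bond into stearate and palmitate, and they lie near each other on chromosome 19, with Scd4 between them. Scd2 (chromosome 19, 44293675 to 44306862, plus strand) had 1503, 1334 and 1436 CPM in 12-month KO, 805, 856 and 816 CPM in 2-month KO, 598, 581 and 568 CPM in 12-month WT and 984, 942 and 939 CPM in 2-month WT. No 2 groups overlapped, with 12-month KO at the top and 12-month WT at the bottom. Scd2 rose with age in KO (0.79 ± 0.05, adjusted p = 3.46e-08), was reduced in aged WT (-0.71 ± 0.05, adjusted p = 8.58e-08) and was higher in 12-month KO than in 12-month WT (1.29 ± 0.05, adjusted p = 2.23e-10). At 2 months it was called lower in KO (-0.21 ± 0.05, adjusted p = 0.0179), a call lost when the libraries were scaled again by TMM over all 12 (-0.12, adjusted p = 0.203), and without replicate 1 or replicate 3 of 2-month KO (adjusted p = 0.079 and 0.0643).

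Scd1 (chromosome 19, 44394449 to 44407709, minus strand) had 1248, 1203 and 1122 CPM in 12-month KO, 1182, 1193 and 1057 CPM in 2-month KO, 1678, 1755 and 1678 CPM in 12-month WT and 1263, 1243 and 1267 CPM in 2-month WT. Only the 12-month WT libraries stood above the rest, and the KO ages overlapped. Scd1 rose with age in WT (0.44 ± 0.06, adjusted p = 2.71e-05) and was lower in 12-month KO than in 12-month WT (-0.52 ± 0.06, adjusted p = 4.29e-06), while age in KO gave 0.06 ± 0.06, adjusted p = 0.399 and genotype at 2 months -0.14 ± 0.06, adjusted p = 0.141. Per kilobase of exon (all annotated exons), Scd2 made up 51.9, 49.8 and 53.4% of the summed level of both genes in 12-month KO, 37.9, 39.1 and 40.9% in 2-month KO, 24.2, 22.9 and 23.2% in 12-month WT and 41.1, 40.4 and 39.9% in 2-month WT. The share averaged 51.7% ± 1.81 in 12-month KO and 23.4% ± 0.677 in 12-month WT (SD, n = 3 each), and the 2-month groups overlapped. Reads that fit both paralogs are a limit on these values, and how the authors' counting treated them is not stated. The other paralogs, Scd3 and Scd4, averaged 0.099 to 0.847 CPM per group.

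**Figure D3:**
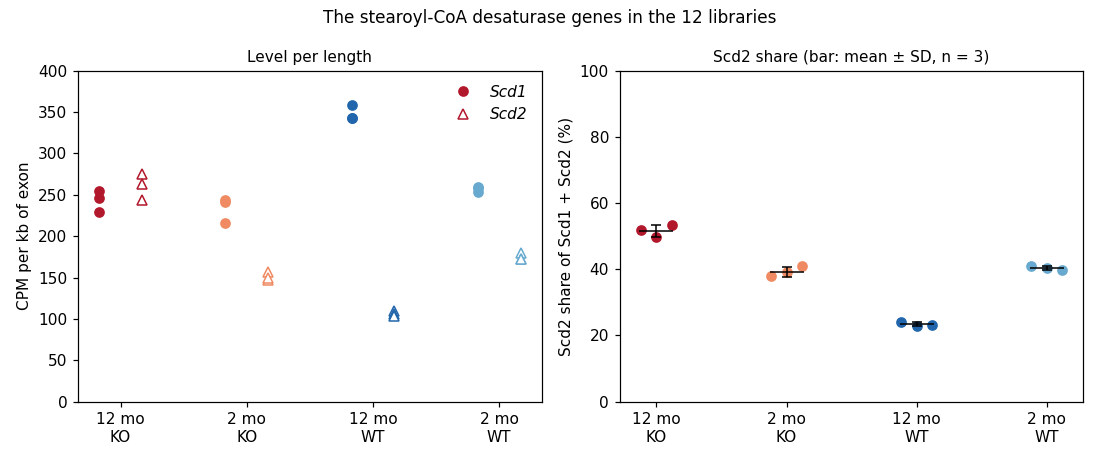
Left, CPM per kilobase of exon (y axis) of Scd1 (filled circles) and Scd2 (open triangles) in each library of the 4 groups. Right, the share of Scd2 in the sum of both (y axis, percent), with the mean ± SD of 3 libraries. The share is 49.8% to 53.4% in 12-month KO and 22.9% to 24.2% in 12-month WT.

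Srebf1, the gene of the SREBP1 transcription factor, was lower in 12-month KO than in 12-month WT, as was the desaturase gene Scd1. The enzyme genes Acly, Acaca, Fasn, Elovl6 and Scd2 were higher there. Srebf1 (chromosome 11, 60199088 to 60220604, minus strand) had 76.2, 84.0 and 108 CPM in 12-month KO, 79.4, 80.9 and 87.5 CPM in 2-month KO, 114, 129 and 129 CPM in 12-month WT and 70.1, 122 and 102 CPM in 2-month WT. The 12-month genotypes did not overlap, with KO below WT, and 2-month WT spread across both. The 12-month KO level was the lower (-0.48 ± 0.16, adjusted p = 0.0178), a call lost when any 1 of 4 libraries was left out, namely replicate 1 or 2 of 12-month KO or replicate 2 or 3 of 12-month WT (adjusted p = 0.0538 to 0.0787). Age gave 0.10 ± 0.16, adjusted p = 0.609 in KO and 0.38 ± 0.16, adjusted p = 0.0655 in WT, and genotype at 2 months -0.21 ± 0.16, adjusted p = 0.456. Without replicate 1 of 2-month WT, the 2-month KO level of Srebf1 is called the lower (-0.43, adjusted p = 0.0237). The difference with age in WT is called under all 3 other scalings (0.44 to 0.51, adjusted p = 0.0149 to 0.034), with edgeR (adjusted p = 0.028) and with DESeq2 (adjusted p = 0.0143), and without replicate 1 of 2-month WT it is 0.16, adjusted p = 0.288. Counts per gene sum the SREBP1a and SREBP1c transcripts. The deposited interval also lies wholly within that of Gm1821 on the other strand, which averaged 86.0 CPM, and whether the counting used strand is not stated, so the value of Srebf1 is uncertain.

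Thrsp, also called Spot 14, encodes a small protein that promotes milk fat synthesis in the mouse mammary gland, and it was the least abundant of the 10. Thrsp (chromosome 7, 97412956 to 97417510, minus strand) had 0.841, 0.709 and 1.09 CPM in 12-month KO (33, 30 and 113 reads), 0.243, 0.0430 and 0.180 CPM in 2-month KO (9, 2 and 7 reads), 2.81, 3.10 and 2.40 CPM in 12-month WT (177, 129 and 84 reads) and 0.515, 0.472 and 0.526 CPM in 2-month WT (21, 23 and 25 reads). No 2 groups overlapped, and 12-month WT was the highest. Its mean passed the filter through the 12-month groups. Thrsp rose with age in KO (1.08 ± 0.14, adjusted p = 2.07e-05) and in WT (1.70 ± 0.14, adjusted p = 2.78e-07), and was lower in 12-month KO than in 12-month WT (-1.25 ± 0.14, adjusted p = 4.68e-06) and likewise in the 2-month groups (-0.63 ± 0.14, adjusted p = 0.00974).

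The scale matters for Thrsp, because log2(CPM + 0.5) shrinks changes at low levels. Mean CPM was 5.67 times as high at 12 as at 2 months in KO and 5.50 times in WT. The interaction was -0.62 ± 0.20, adjusted p = 0.0192 in limma, and 0.047 with edgeR on recovered reads (adjusted p = 0.923). It was also lost without replicate 2 of 12-month WT or replicate 1 of 2-month KO (adjusted p = 0.0501 and 0.0509). Markers of luminal epithelium moved with Thrsp and Scd1 in WT, where 12 of 12 rose with age (22.3% of all genes). At 12 months 12 of 12 were lower in KO (38.9% of all genes). They did not follow Thrsp in the other comparisons. With age in KO 4 of the 12 rose and 2 fell (32.9% and 34.2% of all genes). At 2 months 5 were higher and 1 lower in KO (1.86% and 14.2%). Their summed level was 505 to 538 CPM in 12-month KO, 473 to 548 in 2-month KO, 4141 to 4288 in 12-month WT and 341 to 419.7 in 2-month WT. None of the 12 was at 0 in all libraries of a group, and their part in these results was not tested. The milk protein list summed to 47.6 to 67.4 CPM in 12-month KO, 46.5 to 49.7 in 2-month KO, 617 to 707 in 12-month WT and 58.4 to 69.5 in 2-month WT. Of its 9 genes Wap was at 0 in every library and the casein gene Csn2 was at most 0.048 CPM. The casein gene Csn3 averaged 0.583 CPM in 12-month KO, 33.3 in 2-month KO, 120 in 12-month WT and 34.7 in 2-month WT. In both 12-month groups most of the sum came from 1 gene, Ltf (lactoferrin), so the sum does not give the level of the caseins. Csn1s1 averaged 0.711 CPM in 12-month KO and 6.77 in 12-month WT, and 5 of the 9 genes were under 0.5 CPM in all libraries of each. With age 3 of the 4 genes tested rose and 1 fell in KO (32.9% and 34.2% of all genes), and 4 rose in WT (22.3%). At 12 months 4 were lower in KO (38.9%).

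Plin2, the droplet coat gene, had a profile close to that of Acly. Plin2 (chromosome 4, 86656564 to 86670059, minus strand) had 1307, 1345 and 1547 CPM in 12-month KO, 1167, 1130.4 and 1189.9 CPM in 2-month KO, 993, 909 and 1046 CPM in 12-month WT and 1189, 1310.3 and 1254 CPM in 2-month WT. The 12-month WT libraries were the lowest and those of 12-month KO, at the top, overlapped only 2-month WT. Plin2 rose with age in KO (0.26 ± 0.07, adjusted p = 0.00547), was reduced in aged WT (-0.35 ± 0.07, adjusted p = 0.000929) and was higher in 12-month KO than in 12-month WT (0.51 ± 0.07, adjusted p = 3.06e-05), while genotype at 2 months gave -0.11 ± 0.07, adjusted p = 0.378. With quantile scaling, both age calls of Plin2 were lost (0.040 in KO, adjusted p = 0.493, and -0.11 in WT, adjusted p = 0.0673).

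Fabp4 (chromosome 3, 10204342 to 10208576, minus strand) had 302, 312 and 304 CPM in 12-month KO, 166, 160.4 and 172 CPM in 2-month KO, 133, 128 and 152 CPM in 12-month WT and 181, 171 and 168 CPM in 2-month WT. The 12-month KO libraries were far above the rest and the 12-month WT libraries the lowest, with the 2-month genotypes overlapping. Fabp4 rose with age in KO (0.88 ± 0.06, adjusted p = 4.36e-08), was reduced in aged WT (-0.33 ± 0.06, adjusted p = 0.000449) and was higher in 12-month KO than in 12-month WT (1.15 ± 0.06, adjusted p = 2.36e-09), and genotype at 2 months gave -0.06 ± 0.06, adjusted p = 0.578.

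Fabp4 marks several cell types, and endothelial genes moved with it in KO. All 10 endothelial markers rose with age in KO (32.9% of all genes). Their summed level was 406 to 456 CPM in 12-month KO, 115 to 119 in 2-month KO, 180.2 to 189.6 in 12-month WT and 162 to 182 in 2-month WT, with none at 0. In WT 3 of 10 rose and 1 fell with age (22.3% and 35.6% of all genes), and at 12 months 9 of 10 were higher in KO (31.3%). At 2 months 8 of 10 were lower in KO (14.2%), while Fabp4 was not called. Macrophage markers ran the other way in KO, where 8 of 10 fell and 2 rose with age (34.2% and 32.9% of all genes). They summed to 770.3, 407 and 765 CPM in replicates 1, 2 and 3 of 12-month KO, and to 1049.9 to 1179 in 2-month KO. The sums were 1057 to 1122 in 12-month WT and 1317 to 1546 in 2-month WT. Adipocyte markers were near 0: all 11 summed to 5.05 to 5.76 CPM in 12-month KO, 5.03 to 5.99 in 2-month KO, 7.55 to 8.36 in 12-month WT and 6.65 to 10.8 in 2-month WT, 8 or 9 of the 11 were under 0.5 CPM in all libraries of a group, Adipoq had 0.127, 0.236 and 0.184 CPM in 12-month KO and 0.429, 0.216 and 0.458 CPM in 12-month WT, and Plin1, the coat gene of adipocyte droplets, was at most 0.226 CPM. The part of endothelial and macrophage cells in the Fabp4 result was not tested.

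**Figure D4:**
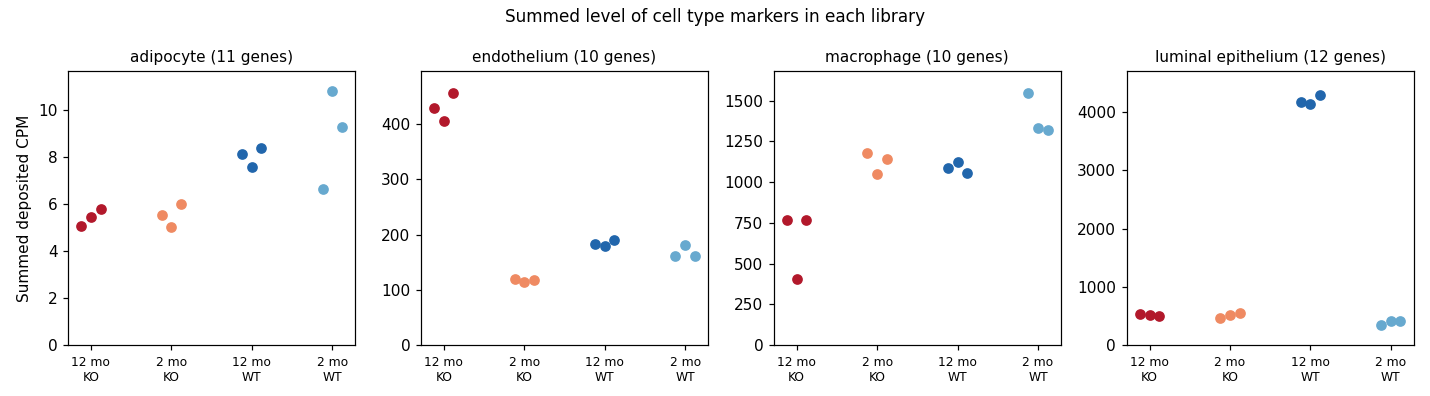
Summed deposited CPM (y axes, each from 0) of 4 marker lists in each library of the 4 groups (x axis), with a point per library. Endothelial genes are highest in 12-month KO (406 to 456 CPM), luminal genes in 12-month WT (4141 to 4288 CPM), and adipocyte genes stay at or under 10.8 CPM.

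Levels of different genes can be compared only per length, and here the order depended on which exons made up the length. Over the union of all annotated exons, Fabp4 had 68.1 ± 1.13 CPM per kilobase in 12-month KO and 30.7 ± 2.88 in 12-month WT (SD, n = 3 each), and over exons of protein-coding transcripts only, a length chosen after seeing the data, it had 341 ± 5.68 in 12-month KO and 154 ± 14.4 in 12-month WT. An annotated transcript that retains its introns fills nearly the whole Fabp4 gene, so its union of 4489 bases shrinks to 896. Plin2 had 398 ± 36.7 CPM per kilobase in 12-month KO and 279.7 ± 19.7 in 12-month WT over all exons, and 663 ± 61.0 in 12-month KO and 466 ± 32.7 in 12-month WT over protein-coding exons, where it led in all 4 groups. Over all exons Scd1 led in 12-month WT with 348 ± 9.08 CPM per kilobase. In 12-month KO, Scd2 with 261 ± 15.5 and Scd1 with 244 ± 13.1 did not differ beyond their spread under either length. Acaca and Thrsp were the lowest under both lengths in every group.

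Among 22 measured genes of other steps of fatty acid synthesis and modification, 10 were higher and 6 lower in KO at 12 months (31.3% and 38.9% of all genes). Fads1, the delta-5 desaturase of polyunsaturated acids, averaged 285 CPM in 12-month KO and 131 CPM in 12-month WT (1.12 ± 0.07, adjusted p = 1.71e-08). Acss2, which makes acetyl-CoA from acetate, averaged 52.4 CPM in 12-month KO and 24.4 CPM in 12-month WT (1.09 ± 0.07, adjusted p = 1.14e-08). The elongase gene Elovl7 went the other way, with 9.10 CPM in 12-month KO and 44.4 CPM in 12-month WT (-2.24 ± 0.13, adjusted p = 6.17e-09). With age 12 rose and 5 fell in KO (32.9% and 34.2% of all genes), led by Fads3 (1.45) and Acss2 (1.35). In WT 5 rose and 6 fell (22.3% and 35.6% of all genes), led by Elovl7 (2.81). The list's median was 0.16 for genotype at 12 months, 0.20 for age in KO and -0.033 for age in WT.

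Of 25 measured lipogenic regulators, 7 were higher and 13 lower in KO at 12 months (31.3% and 38.9% of all genes), with a median of -0.16. Insig1, which holds SREBPs in the endoplasmic reticulum and is itself a SREBP target, averaged 518 CPM in 12-month KO and 244 CPM in 12-month WT (1.08 ± 0.06, adjusted p = 4.5e-09). Pparg, the nuclear receptor of adipocyte differentiation and an activator of Fabp4 and Plin2, averaged 40.1 CPM in 12-month KO and 20.6 CPM in 12-month WT (0.94 ± 0.06, adjusted p = 2.27e-08). Nr1h3, the sterol sensor LXRα, averaged 42.9 CPM in 12-month KO and 25.6 CPM in 12-month WT (0.73 ± 0.09, adjusted p = 8.49e-06). Both Pparg and Nr1h3 rose with age in KO (0.32 and 0.81) and fell in WT (-0.73 and -0.43). Usf1, an E-box factor of the Fasn promoter, had a lower level in 12-month KO (-1.09, adjusted p = 3.16e-06).

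Of 15 measured genes of droplet coats and lipolysis, 8 rose and 1 fell with age in KO (32.9% and 34.2% of all genes). In WT 5 rose and 3 fell (22.3% and 35.6% of all genes). The medians were 0.23 in KO and 0.14 in WT. Hilpda, an inhibitor of the lipase ATGL that hypoxia induces, averaged 74.5 CPM in 12-month KO, 32.3 in 2-month KO, 26.9 in 12-month WT and 34.0 in 2-month WT (age in KO 1.19 ± 0.09, adjusted p = 1.42e-07). The coat gene Plin4 averaged 58.6 CPM in 12-month KO, 23.4 in 2-month KO, 34.5 in 12-month WT and 43.7 in 2-month WT (age in KO 1.31 ± 0.10, adjusted p = 1.04e-07). Cidea, which controls droplet size and milk lipid secretion in the mouse, averaged 1.16 CPM in 12-month KO and 5.87 CPM in 12-month WT (-1.95 ± 0.14, adjusted p = 4.43e-08). At 12 months 6 of the list were higher and 7 lower in KO (31.3% and 38.9% of all genes). Plin3, a coat gene found in most tissues, was among the lower (-0.51, adjusted p = 0.000653).

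Of 16 measured genes of triglyceride synthesis and milk-fat secretion, 5 were higher and 6 lower in KO at 12 months, shares near those of all genes (31.3% and 38.9%). With age 5 were higher and 4 lower in KO (32.9% and 34.2% of all genes), and 5 higher and 5 lower in WT (22.3% and 35.6%). The median for genotype at 12 months was -0.12. Btn1a1, the butyrophilin of the milk fat globule membrane, averaged 1.41 CPM in 12-month KO and 9.11 CPM in 12-month WT (-2.33 ± 0.13, adjusted p = 2.51e-09). Its membrane partner Xdh, xanthine dehydrogenase, averaged 674 CPM in 12-month KO and 469 CPM in 12-month WT (0.52 ± 0.06, adjusted p = 5.02e-06), a call lost with quantile scaling (0.11, adjusted p = 0.132).

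In the uptake, binding and activation list of 17 measured genes, 8 were higher and 7 lower in KO at 12 months (31.3% and 38.9% of all genes). The median was -0.086. Vldlr, a receptor that takes up triglyceride-rich lipoproteins, averaged 1071 CPM in 12-month KO and 351 CPM in 12-month WT (1.61 ± 0.05, adjusted p = 2.87e-11). The fatty acid translocase gene Cd36 fell with age in KO (-1.18, adjusted p = 1.72e-07) and in WT (-1.15, adjusted p = 2.19e-07). With age 8 of the list rose and 5 fell in KO (32.9% and 34.2% of all genes), and 2 rose and 8 fell in WT (22.3% and 35.6%). Of 27 measured genes of fatty acid oxidation 4 were higher and 16 lower in KO at 12 months (31.3% and 38.9% of all genes), with a median of -0.25. Among the lower was the mitochondrial isomerase gene Eci1 (-1.21, adjusted p = 9.92e-09).

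The sterol synthesis and uptake genes, which SREBP2 mainly controls, were higher in KO at 12 months in 22 of 23 cases and lower in none. The shares of all genes were 31.3% and 38.9%. The list's median was 0.65. With age in WT 1 rose and 19 fell (22.3% and 35.6% of all genes), with a median of -0.49. In KO 13 rose and 1 fell with age (32.9% and 34.2%), with a median of 0.24. At 2 months none was called in either direction (1.86% and 14.2%).

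**Figure D5:**
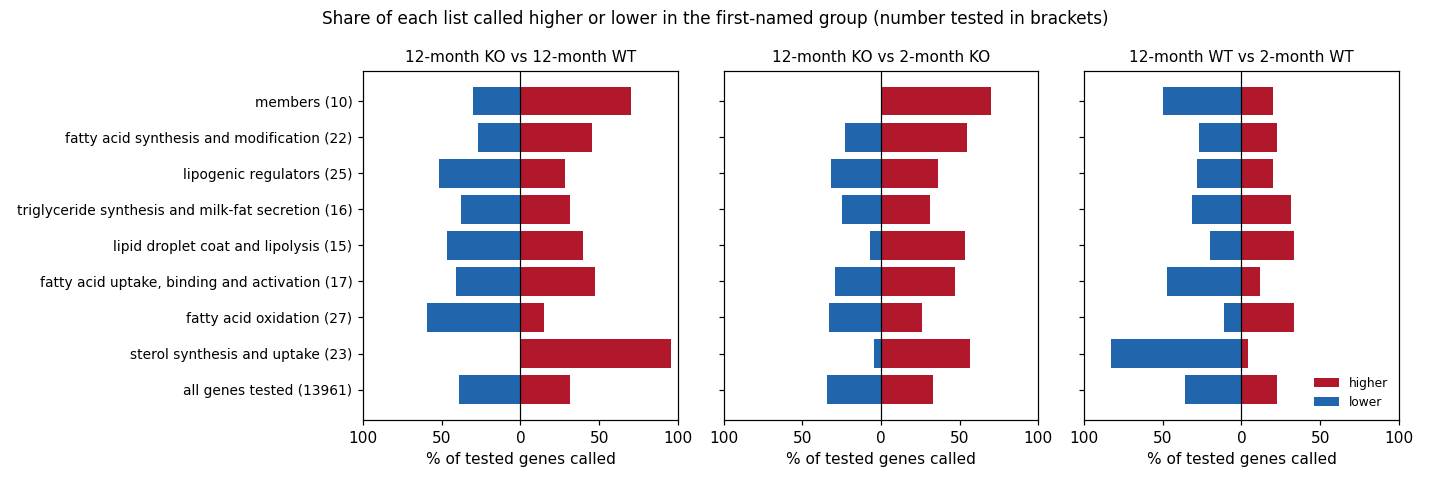
Percent of the tested genes of each list (rows, with the number tested) that were called higher (right, red) or lower (left, blue) in 3 comparisons, with all genes tested as the last row. The 10 genes have 7 higher and 3 lower in 12-month KO against 12-month WT, and sterol genes 22 of 23 higher.

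Profiles were compared by the root mean square difference of log2 values over the 12 libraries, after each gene was centred on its own mean. Among the 10 genes, Acly and Plin2 were closest at 0.0865, followed by Scd2 with Fabp4 at 0.164 and Acaca with Fabp4 at 0.166, while Thrsp was at least 0.670 from every other. The search for nearest genes ran over the genes tested, leaving out those named Gm plus digits or ending in Rik. The nearest to Fasn was Prr3 (0.0575), to Acaca Mycbp2 (0.0683) and to Scd1 Usp22 (0.0566). Nearest to Scd2 were Atp7a (0.0649) and the fibroblast marker Pdgfra (0.0656), and the 3 nearest to Fabp4 included Layn (0.0708) and the microfibril gene Fbn1 (0.0827). Pdgfra and Fbn1 are both on the list of 10 fibroblast genes, which did not move as 1. At 12 months 6 of the list were higher and 3 lower in KO (31.3% and 38.9% of all genes). With age in KO 5 rose and 4 fell (32.9% and 34.2% of all genes). In WT 2 rose and 8 fell with age (22.3% and 35.6%), as Scd2 and Fabp4 did. At 2 months 2 were higher and 2 lower in KO (1.86% and 14.2%). These distances describe 12 libraries that fall into 4 groups.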

How the data were processed

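RNA sequencing of total RNA from passage 2 mammospheres gave 12 libraries in 4 groups of 3. Per the submitters' processing notes, TopHat2 2.1.0, Bowtie2 2.2.4, SAMtools 0.1.18, HTSeq 0.6.1p1 and the build mm10 were used. The kit was TruSeq Stranded total RNA, per the labels' protocols. The labels name no annotation or strand setting. Deposited signal values are CPM scaled by TMM in edgeR, per the file headers. Dividing them by the CPM of 1 read gave whole reads for 100% of values above 0, within 0.1 of a read, in every library. A floor of 3 reads stood for 0.029 to 0.0859 CPM, which covers counting error only.

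Values were taken as log2(CPM + 0.5), and 13961 genes averaging 0.5 CPM or more entered 1 fit of the 4 group means over all 12 libraries in limma 3.58.1 under R 4.3.3, with the trend option. Benjamini-Hochberg adjustment ran over all genes of a comparison, with calls under 0.05. An exact test of 3 against 3 libraries cannot go below 0.1. The pseudocount makes fold changes of low genes too small. The edgeR 4.0.16 quasi-likelihood test and DESeq2 1.42.0 on recovered reads were alternatives. The edgeR test called 9772 genes for genotype at 12 months, 1414 for genotype at 2 months, 9333 for age in KO, 7664 for age in WT and 8120 for the interaction, against 9801, 2245, 9358, 8091 and 8051 in limma. Exon lengths are unions of all GENCODE vM21 exons of a gene, or of those of protein-coding transcripts where said. Promoter windows are from RefSeq on GRCm38.p6, where 7 of 10 members matched. The fit was tested on simulated reads with few genes changed, in a single group. Such a test does not bear on the scaling of comparisons in which most genes are called.

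The members, lists and tests were chosen with earlier results of these data known. The text names all 10 members and, from each list, called genes among the 3 largest rises or falls of a comparison, plus Insig1, Acss2, Acacb, Mlxipl, Nr1h3, Pparg, Plin1, Plin3 and Plin4, which may be named whatever their result, and the 3 nearest profiles of each member; not all are printed. Adipoq, Wap, Csn2 and Csn3 were named as defining markers, after their values were seen. Ltf and Csn1s1 were named for their part in the milk protein sum, also after their values were seen.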

Additional observations from a re-analysis of the deposited data

Results flagged for a closer look

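The age effect in KO minus the age effect in WT differed from 0 by limma's test for 9 of the 10 genes (adjusted p under 0.05), beside 57.7% of all genes tested. On the log2 scale this difference was 1.50 for Scd2 (adjusted p = 3.95e-09), 1.21 for Fabp4 (adjusted p = 8.72e-08) and 1.03 for Acaca (adjusted p = 7.25e-07). It was 0.74 for Elovl6 (adjusted p = 0.000153), 0.61 for Plin2 (adjusted p = 0.000183), 0.60 for Acly (adjusted p = 0.000203) and 0.60 for Fasn (adjusted p = 0.00335). The difference was -0.38 for Scd1 (adjusted p = 0.00174) and -0.62 for Thrsp (adjusted p = 0.0192), whose sign turned on recovered reads. For Srebf1 it was -0.28 and was not called (adjusted p = 0.323).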

How the results depend on the processing

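Of the alternative values for the 10 genes, 1079 kept direction and side of the threshold, 15 passed it, 22 lost it and 19 turned sign; the cause of these changes was not tested. The comparison of genotypes at 2 months was the least stable: its 2 calls among the 10 genes became 1 with the filter at 2 CPM (which drops Thrsp), TMM over all 12 libraries, DESeq2 size factors, quantile scaling, edgeR or DESeq2, and 1 to 5 without 1 library. The 5, all lower in KO, came without replicate 1 of 2-month WT. Over all genes its 2245 calls became 1458 with TMM over 12, 1417 with DESeq2 size factors, 1322 with quantile scaling and 1414 with edgeR, and 1407 to 3033 without 1 library, the lowest without replicate 1 of 2-month KO and the highest without replicate 1 of 2-month WT.

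Among the values that turned sign, Acly with age in KO and the Thrsp interaction had been called. In the order TMM over 12, DESeq2 size factors, quantile, edgeR and DESeq2, genotype at 2 months was 0.0015, 0.0083, 0.0040, 0.017 and 0.0034 for Elovl6, and 0.027, 0.034, 0.010, 0.042 and 0.028 for Fabp4. Age in WT for Fasn was 0.13 with quantile scaling and 0.0046 with edgeR, and -0.21 to 0.047 without 1 library. Age in KO was -0.050 for Acly and -0.18 for Scd1 with quantile scaling. Without 1 library, age in WT for Acaca was -0.0009 to 0.097, and age in KO for Srebf1 was -0.045 to 0.21. The Thrsp interaction was 0.047 with edgeR and 0.094 with DESeq2, and -0.23 with a pseudocount of 0.1 (adjusted p = 0.64).

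Quantile scaling also ended the calls of Acly and Fasn between genotypes at 12 months and the interactions of Acly, Fasn and Plin2. Same-numbered libraries of different groups had deviations correlated at r of -0.163 to 0.589 (median 0.0926, 8 of 18 library pairs over 0.1), and differently numbered ones at -0.561 to 0.418 (median -0.0558, 7 of 36 over 0.1). Not every same-numbered pair passed 0.1 and no label gives the numbers a meaning, so they were not taken as pairs. With a replicate block, limma called 10079 genes for genotype at 12 months, 2590 at 2 months, 9681 for age in KO, 8453 for age in WT and 8517 for the interaction, and 2 values passed the threshold, Srebf1 with age in WT (0.38, adjusted p = 0.0169) and Elovl6 with age in KO (0.18, adjusted p = 0.0189). Using only the libraries compared gives no value for the interaction, which needs all 4 groups. Counting only exons of protein-coding transcripts, added after seeing the data, gave a Scd2 share in 12-month KO within its SD of the value over all exons, but 341 CPM per kilobase for Fabp4 there, against 68.1 over all exons. Depth limits mainly Thrsp, with 2 to 177 reads a library.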
